A study of Mus musculus with 2 samples.

Results

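The IFITM genes code for small membrane proteins of the cell surface and of endosomes. Interferons induce several of them, and the proteins are best known for blocking the fusion of enveloped viruses with the host membrane; Ifitm1 and Ifitm3 also mark early germ cells, and Ifitm6 is known from bone marrow and macrophages. The members described here, Ifitm1, Ifitm2, Ifitm3 and Ifitm6, were taken by name: 4 of the 54736 gene names in the deposited matrix of spliced UMIs (unique molecular identifiers, each standing for 1 captured RNA molecule). Their levels were followed in the mouse acute myeloid leukemia line 63.3, in 10 cultures pooled after tagging with MULTI-seq lipid barcodes and run on the 10x Genomics v3 platform.

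All cultures came from cells kept in dialyzed serum with 0.5 µM beta-estradiol and 1% of a conditioned medium that supplies stem cell factor. In the brequinar arm the cells received 2 µM brequinar, an inhibitor of the pyrimidine synthesis enzyme DHODH, and were taken at 0, 6, 12, 24 and 48 h. In the withdrawal arm estradiol was washed away and the cells were taken at the same times. The sources used here do not say what estradiol controls in this line, nor which culture received the vehicle named in the series' design text, and no untreated culture was matched to the later times. Each condition was 1 culture, so no test between conditions was possible: levels are given as CPM, the gene's UMIs per 1000000 spliced UMIs of the culture. All intervals are exact ones at 95%, and they cover only the error of counting.

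The 10 cultures held 528 to 1536 singlet cells each, 12540 in all, with 5236694 to 19931921 spliced UMIs, so that 3 UMIs correspond to 0.151 to 0.573 CPM. The median cell had 6509 to 15229 UMIs. The progenitor genes Kit, Cd34, Hoxa9, Meis1, Flt3, Myb and Mpo were detected in every culture. Their summed level was 1729 to 3435 CPM in 9 cultures and 871 CPM after 48 h of withdrawal. The highest sum, at 24 h of withdrawal, was mostly Mpo (2859 CPM). There 4 of the 7 genes were at least 1.5-fold lower than at 0 h and 1 was higher. Of all genes at 20 CPM or more, 11.9% were lower and 9.46% higher. T and NK cell markers summed to at most 0.654 CPM. Before treatment the arms were close: of 5490 genes that reached 20 CPM in a 0 h culture of either arm, 0 were at least 1.5-fold higher and 3 (0.0546%) were at least 1.5-fold lower in the brequinar arm, none of them an Ifitm gene. Of these 3, 2 belong to the neutrophil list used below: S100a9 (53.4 against 83.6 CPM) and Ngp (13.9 against 22.0 CPM).

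All 4 members lie with Ifitm5 in 1 cluster of 68967 bases on mouse chromosome 7 (chr7:140948958-141017924, GRCm38, GENCODE M21). Ifitm1 (ENSMUSG00000025491, chr7:140967221-140969825) is on the plus strand, and Ifitm2 (ENSMUSG00000060591, chr7:140954837-140955987), Ifitm3 (ENSMUSG00000025492, chr7:141009586-141010770) and Ifitm6 (ENSMUSG00000059108, chr7:141015699-141017924) are on the minus strand. Ifitm3 and Ifitm6 are next to each other, 4928 bases apart. The coding sequences of Ifitm2 and Ifitm3 were the most alike of the 6 pairs, with 75.9% identity, and the other pairs shared 57.2% to 63.5%.

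Because this family is known for its response to interferon, the promoters were searched on both strands for the core of the interferon-stimulated response element (GAAA, any 2 bases, GAAA), for TTCNNNGAA, the STAT motif, for TTGCNNAA, a C/EBP motif, and for GAGGAAGT, a PU.1 motif. The promoters of the 3 members whose levels moved most are shown as RefSeq gives them on GRCm38.p6, 5′ to 3′ on the gene's strand, from 250 bases before the annotated start to 50 bases after it; capitals mark the matches.
Ifitm1 promoter: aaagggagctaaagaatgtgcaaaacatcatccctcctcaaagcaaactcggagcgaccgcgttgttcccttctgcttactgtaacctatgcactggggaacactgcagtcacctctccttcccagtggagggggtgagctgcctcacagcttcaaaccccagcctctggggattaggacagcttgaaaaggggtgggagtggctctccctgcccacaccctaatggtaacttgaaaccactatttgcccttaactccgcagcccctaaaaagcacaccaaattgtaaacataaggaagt
Ifitm3 promoter: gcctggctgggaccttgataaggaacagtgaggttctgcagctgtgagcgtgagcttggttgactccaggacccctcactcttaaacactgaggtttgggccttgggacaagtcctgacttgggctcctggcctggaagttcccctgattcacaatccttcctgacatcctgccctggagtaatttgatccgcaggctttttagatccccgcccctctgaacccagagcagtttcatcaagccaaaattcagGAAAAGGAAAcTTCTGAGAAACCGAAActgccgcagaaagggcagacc
Ifitm6 promoter: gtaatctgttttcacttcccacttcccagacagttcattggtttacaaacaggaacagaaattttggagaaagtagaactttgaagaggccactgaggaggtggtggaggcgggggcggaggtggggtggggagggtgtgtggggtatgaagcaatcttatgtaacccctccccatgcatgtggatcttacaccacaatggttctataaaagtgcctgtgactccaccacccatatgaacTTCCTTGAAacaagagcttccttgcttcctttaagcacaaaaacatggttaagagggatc
The Ifitm1 window (chr7:140967826-140968125, plus strand) held no match to any of the 4 motifs. The Ifitm3 window (chr7:141010695-141010994, minus strand) held the interferon core at bases 3 to 12 and 20 to 29 after the start, counted from 1 at the start, and a STAT match at bases 14 to 22 that overlaps the second core. The Ifitm6 window (chr7:141016843-141017142, minus strand) held a STAT match from base -10 to -2 and no interferon core. The windows of all 4 members follow RefSeq starts that lie inside the GENCODE genes. For Ifitm2 and Ifitm3 the GENCODE starts, 140955987 and 141010770, fall within the windows. Positions counted from the GENCODE starts would differ from those given here. Ifitm1 and Ifitm6 have 3 GENCODE transcripts each. The bases before the GENCODE starts of Ifitm1 (140967221) and Ifitm6 (141017924) were not searched. The Ifitm2 window (chr7:140955912-140956211, minus strand) held 1 interferon core, from base -46 to -37. Of 32851 RefSeq promoters of the same length, 3.44% held the interferon core, 8.30% the STAT motif, 10.8% the C/EBP motif and 3.20% the PU.1 motif; no member held a C/EBP or PU.1 match. These matches describe letters in the window and do not show binding.

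The 4 members took 4 different courses. Ifitm1 rose about 10-fold under brequinar and not on withdrawal; Ifitm6 appeared after 48 h of withdrawal; Ifitm3 fell under brequinar, and on withdrawal it fell until 24 h and was back above its starting level at 48 h; Ifitm2 stayed within 1.60-fold of its starting level. Across the 10 cultures the Pearson correlation of log2(CPM + 5) between members ran from -0.22, for Ifitm1 with Ifitm3, to 0.53, for Ifitm1 with Ifitm2 (n = 10 cultures of 1 pool).

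**Figure D1:**
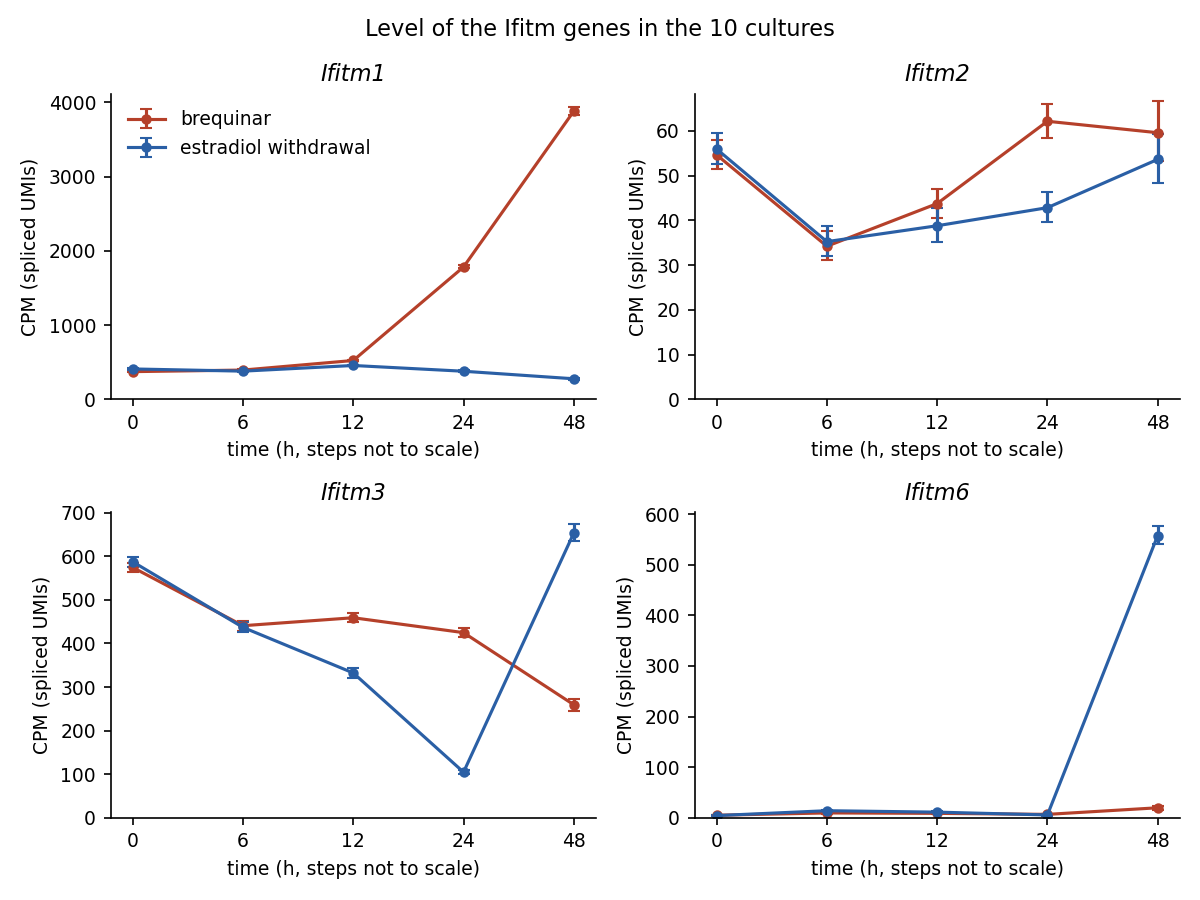
Level of each member in CPM of spliced UMIs (linear vertical axes from 0, a separate scale per gene) against time in hours (horizontal axis, steps not to scale); points are single cultures and bars are exact 95% intervals of the count. Ifitm1 climbs to 3883 CPM at 48 h of brequinar, Ifitm3 drops to 105 CPM at 24 h of withdrawal, and Ifitm6 reaches 557 CPM at 48 h of withdrawal while its other 9 cultures stay at or below 19.9 CPM.

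Ifitm1, which acts mainly at the plasma membrane, was measured under brequinar at 373, 394, 523, 1783 and 3883 CPM at 0, 6, 12, 24 and 48 h. On withdrawal its level was 409, 380, 456, 378 and 277 CPM at the same times. The 24 and 48 h brequinar cultures stood above all others, and the 48 h withdrawal culture stood below all others; the 0, 6 and 24 h withdrawal and the 0 and 6 h brequinar cultures followed each other in the order of levels with overlapping intervals. Against its own 0 h culture Ifitm1 was 4.78-fold higher (95% interval 4.66 to 4.90) at 24 h of brequinar and 10.4-fold higher (10.1 to 10.7) at 48 h. The steepest step was from 12 to 24 h, where the level was 3.41-fold higher (3.33 to 3.49), followed by a 2.18-fold step (2.14 to 2.22) to 48 h. On withdrawal the 48 h level was 1.48-fold lower (1.41 to 1.56), just short of the 1.5-fold that counts as a difference here. The 2 arms differed 4.71-fold (4.58 to 4.85) at 24 h and 14.0-fold (13.4 to 14.7) at 48 h, with brequinar higher.

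The share of cells that held Ifitm1 was highest at 24 and 48 h of brequinar. With every cell thinned to 2500 UMIs, the share of cells with an Ifitm1 UMI was 49.3% at 0 h, 45.2% at 6 h, 57.4% at 12 h, 87.3% at 24 h and 78.1% at 48 h of brequinar. The unthinned shares were 78.7%, 76.4%, 79.8%, 95.4% and 89.8%. On withdrawal the thinned share was 49.0%, 46.5%, 54.8%, 37.3% and 27.6%, and the unthinned share 80.0%, 73.0%, 75.2%, 64.8% and 47.7%. Barcodes with 2 to 100 UMIs, which hold mostly free RNA of the pool, had Ifitm1 at 726 CPM; if 5% of each cell's UMIs were such RNA, 8.67% of thinned cells would show an Ifitm1 UMI.

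The 24 and 48 h brequinar cultures differed in how the Ifitm1 UMIs were spread over cells. At both times the median thinned cell had 3 UMIs, but the 90th percentile was 10 UMIs at 24 h and 31 at 48 h, and the highest cell had 63 and 86. The richest 10% of cells held 33.5% of the Ifitm1 UMIs at 24 h and 54.3% at 48 h. Cells with at least 10 Ifitm1 UMIs made up 10.4% of the culture at 24 h and 24.1% at 48 h, and those with at least 20 made up 1.61% and 14.8%, while the share of cells with any UMI was lower at 48 h. Without the 2% of cells richest in Ifitm1 the 48 h fold was 9.94.

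**Figure D2:**
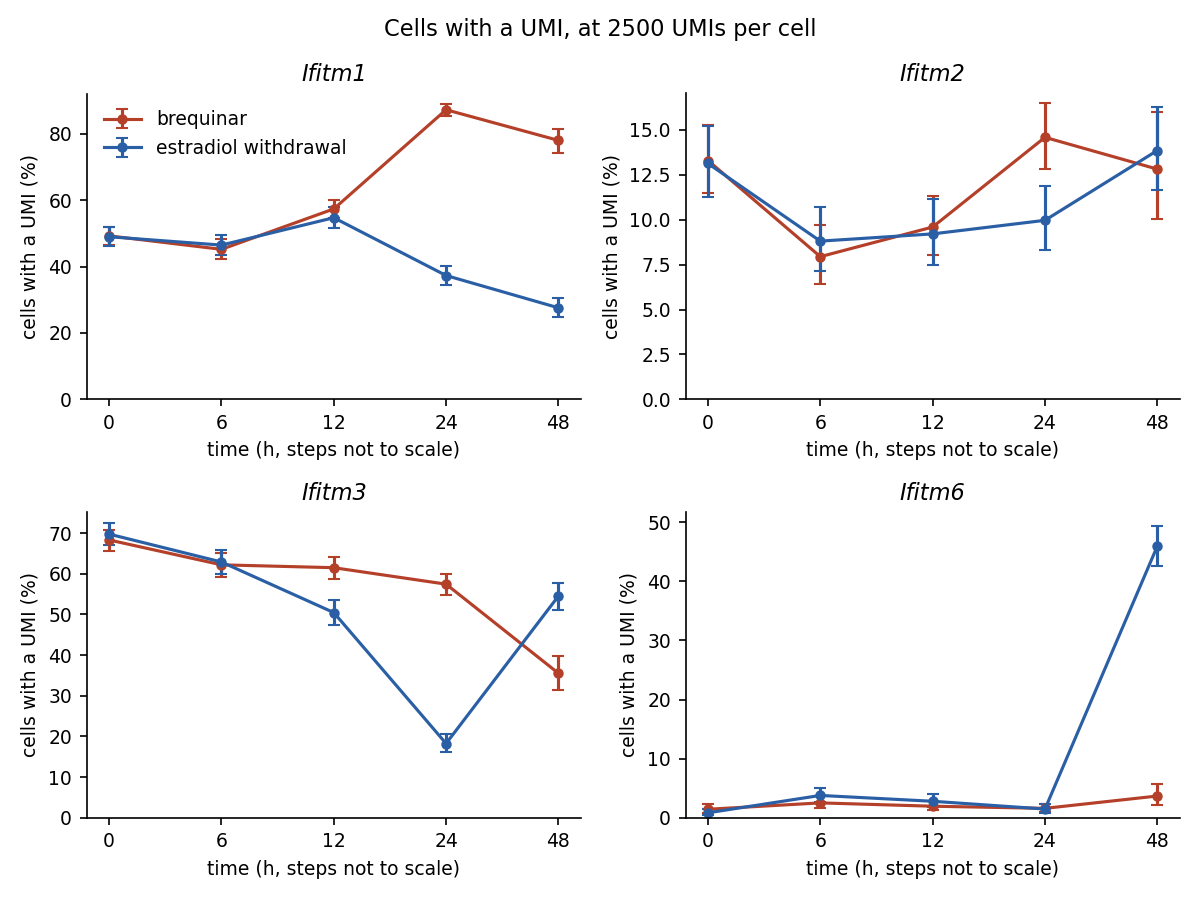
Share of cells, in percent, with at least 1 UMI of each member (vertical axes from 0, a separate scale per gene) against time in hours (horizontal axis, steps not to scale), after thinning every cell to 2500 UMIs; points are single cultures and bars are exact 95% binomial intervals. Ifitm1 reaches 87.3% at 24 h of brequinar, Ifitm3 drops to 18.3% at 24 h of withdrawal, and Ifitm6 is at 45.9% at 48 h of withdrawal against 0.853% to 3.79% in the other 9 cultures.

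The summed levels of all marker lists but the dendritic one were also higher at 48 h of brequinar than at 0 h. The T and NK sum at 48 h was only 3 UMIs of Cd3d, so its direction is not settled. The dendritic list went from 91.5 to 33.4 CPM, nearly all of it Flt3 (90.8 to 32.7 CPM), which is also in the progenitor list. The B lymphoid list went from 3.46 to 28.6 CPM (1 of 1 measured genes called higher), all of it Cd79a at 48 h. The progenitor list went from 1878 to 2656 CPM, with 1 of 7 called higher and 1 lower (25.7% and 17.3% of all genes). The neutrophil list went from 306 to 1556 CPM (6 of 6 measured genes called higher), the monocyte and macrophage list from 138 to 853 CPM (7 of 7) and the megakaryocyte list from 31.5 to 179 CPM (3 of 3), where 25.7% of all genes were called higher. The mast cell and basophil list summed to 430, 425, 664, 1758 and 3215 CPM over the brequinar times, but its members did not move together: 1 of 3 measured genes was called higher and 1 lower. The sum was nearly all Cpa3, a mast cell protease (337 CPM at 0 h and 3131 CPM at 48 h). The basophil protease gene Mcpt8 went from 55.7 to 13.6 CPM. The other detected members were higher at 48 h than at 0 h. Ms4a2 went from 2.51 to 17.6 CPM, Prss34 from 2.21 to 10.9, Cma1 from 0.151 to 1.72 and Gata2 from 32.3 to 39.9. Fcer1a was at 0 and Tpsb2 had 1 UMI in all cultures together. The eosinophil list went from 1444 to 11670 CPM (3 of 3), led by the granule protein gene Prg2 (9165 CPM), with Ear1 and Ear2 at 0. Within the 48 h culture, cells were ordered by their thinned UMIs of each list and cut into 4 bins of equal size, ties being split in file order. By the mast cell and basophil list the bins had a mean of 2.54, 6.30, 9.93 and 19.5 Ifitm1 UMIs per cell from lowest to highest. By the eosinophil list they had 6.20, 3.36, 6.16 and 22.6. By the neutrophil list the highest bin had the lowest mean, 5.84, against 10.1 to 11.1 in the other 3. On withdrawal, the eosinophil list was higher still at 24 h, 16598 CPM, where Ifitm1 as a whole was at 378 CPM. There the highest mast cell and basophil bin had an Ifitm1 UMI in 59.1% of cells and the other 3 in 28.7% to 32.2%. The mast cell and basophil list summed to 462, 445, 1345, 843 and 293 CPM over the withdrawal times. At 12 h, where this sum was highest on withdrawal, Ifitm1 was at 456 CPM. The part that these lineages had in the Ifitm1 rise was not tested.

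**Figure D3:**
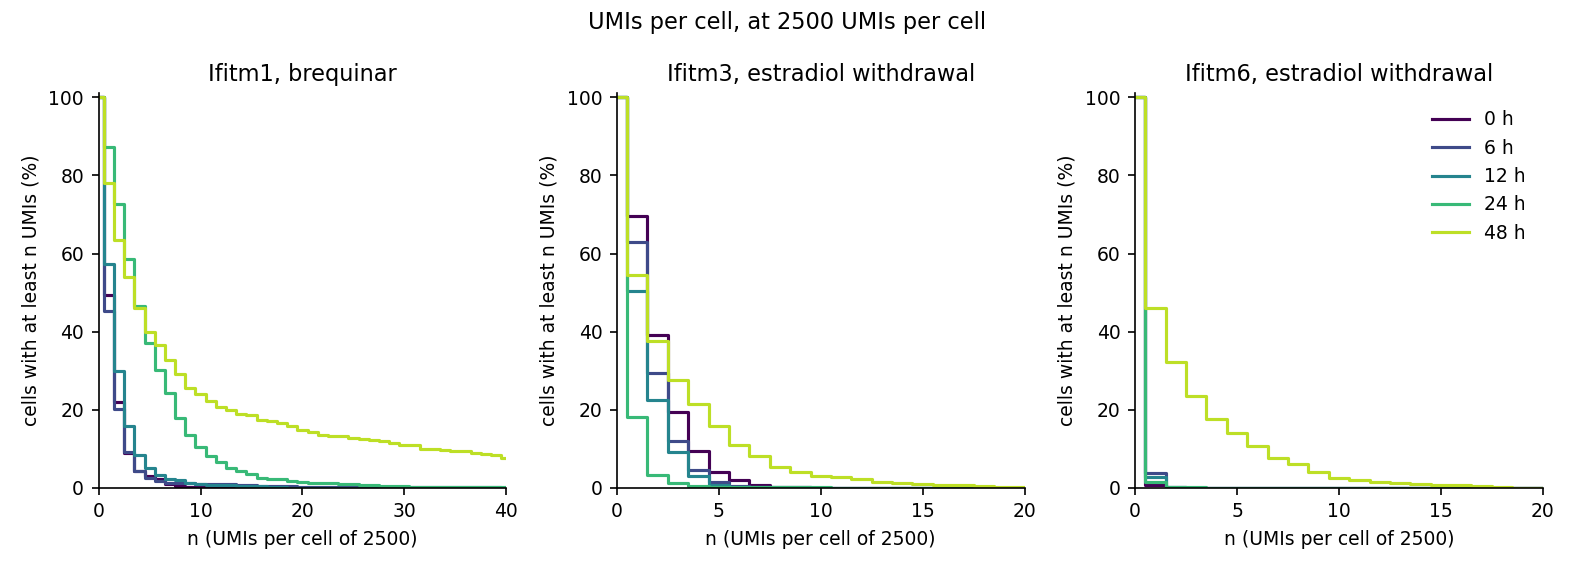
Share of cells, in percent, with at least n UMIs of the gene (vertical axis) against n (horizontal axis, UMIs per cell after thinning to 2500), with 1 line per culture and darker lines for earlier times: Ifitm1 under brequinar (left), Ifitm3 (middle) and Ifitm6 (right) on withdrawal. The 24 and 48 h lines for Ifitm1 cross, with 87.3% against 78.1% of cells at 1 UMI or more, and the 48 h line runs far beyond the others; for Ifitm3 the 48 h withdrawal line starts below the 0 h line and ends above it.

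Ifitm3, the member best known for restricting viruses that enter through endosomes, was at 574, 441, 459, 425 and 259 CPM over the brequinar times. On withdrawal it was at 587, 437, 332, 105 and 653 CPM. The 6 h levels of both arms were close, 1.30-fold (1.26 to 1.35) and 1.34-fold (1.30 to 1.39) below their own 0 h cultures. From there the arms parted: at 24 h Ifitm3 was 5.61-fold lower (5.31 to 5.92) than at 0 h on withdrawal and 1.35-fold lower (1.31 to 1.39) under brequinar. At 48 h it was 2.21-fold lower (2.09 to 2.34) than at 0 h under brequinar, and on withdrawal it was 1.11-fold higher (1.07 to 1.15), after a step of 6.24-fold (5.88 to 6.62) from 24 to 48 h. Scaling by median-of-ratios size factors in place of totals shifts every ratio of the 48 h withdrawal culture to 0 h by 0.35 on the log2 scale, and the Ifitm3 fold was then 1.42. Brequinar against withdrawal was thus 4.06-fold higher (3.84 to 4.29) at 24 h and 2.52-fold lower (2.37 to 2.68) at 48 h. In the order of levels, the 0 h cultures of both arms overlapped, as did the 6 h cultures of both arms with the 12 and 24 h brequinar cultures; the other neighbours were apart.

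The return of Ifitm3 at 48 h of withdrawal was carried by fewer cells than had held it at 0 h. The thinned share of cells with an Ifitm3 UMI was 69.7% at 0 h, 62.9% at 6 h, 50.5% at 12 h, 18.3% at 24 h and 54.5% at 48 h of withdrawal (87.0%, 81.9%, 75.2%, 51.5% and 68.8% unthinned). Cells with 5 or more Ifitm3 UMIs made up 4.01% of the 0 h culture and 15.8% of the 48 h culture. Under brequinar the thinned share went from 68.3% to 35.5% (86.2% to 74.2% unthinned). Free RNA held Ifitm3 at 416 CPM, which at 5% of a cell's UMIs would give 5.07% of thinned cells a UMI.

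Ifitm6 was close to absent until the last withdrawal time. Under brequinar it was at 5.12, 9.68, 8.84, 6.84 and 19.9 CPM, from 102, 127, 141, 115 and 104 UMIs. On withdrawal it was at 4.40, 14.1, 11.2, 5.70 and 557 CPM, from 82, 170, 122, 83 and 3826 UMIs. The 48 h withdrawal culture stood apart from all others, 127-fold (102 to 160) above its own 0 h culture, 97.9-fold (78.7 to 123) above 24 h and 28.1-fold (23.1 to 34.4) above the 48 h brequinar culture. Without the 2% of cells richest in Ifitm6 the ratio of brequinar to withdrawal at 48 h went from 0.0356 to 0.0227. Only 55 of 528 brequinar cells had an Ifitm6 UMI, against 526 of 963 withdrawal cells, so this setting takes a larger part of the brequinar count. At 48 h of brequinar Ifitm6 was 3.88-fold higher (2.92 to 5.15) than at 0 h, a difference between levels that are both under 20 CPM. A smaller early bump, also under 20 CPM, was seen at 6 h in both arms. It was 1.89-fold (1.45 to 2.48) under brequinar and 3.19-fold (2.44 to 4.21) on withdrawal. The withdrawal fold was 2.03 with a pseudocount of 5 CPM and 4.86 without the 2% of cells richest in Ifitm6. At 0 h of withdrawal only 63 of 1353 cells had an Ifitm6 UMI. Leaving out 2% of cells takes much of the count there, which by itself raises folds against that culture. In the order of levels the other 9 cultures each overlapped with their neighbours.

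After 48 h of withdrawal 45.9% of thinned cells (42.6% to 49.3%) had an Ifitm6 UMI, against 0.853% at 0 h and at most 3.79% in the other cultures (unthinned 54.6% against 4.31% to 10.9%). Free RNA held Ifitm6 at 34.6 CPM, which at 5% of a cell's UMIs would give 0.432% of thinned cells a UMI. Because all cultures were pooled before loading, Ifitm6 RNA of the 48 h culture can reach the droplets of the others, and its part in their low levels was not tested. Removing such RNA at 5% of each culture's UMIs raised the withdrawal fold from 127 to 208, and over all alternatives tried that fold ran from 59.8 to 244.

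Ifitm6 and Ifitm3 were found in the same cells at 48 h of withdrawal. The 408 thinned cells with an Ifitm6 UMI had a mean of 3.62 Ifitm3 UMIs, and the 480 cells without one had 0.681; 83.8% and 29.6% of them had an Ifitm3 UMI. Ifitm1 differed less, with means of 1.07 and 0.567. The cells with Ifitm6 held a mean of 217 UMIs of the neutrophil list against 66.4, 2.81 UMIs of the monocyte and macrophage list against 1.23, and 2.31 UMIs of the eosinophil list against 42.7. These are cells of 1 culture and not replicates.

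The neutrophil list went from 370 to 50921 CPM over the withdrawal times (9 of 9 measured genes called higher). It was mostly the calprotectin genes S100a8 (19980 CPM) and S100a9 (20183 CPM). The monocyte and macrophage list went from 137 to 666 CPM, with 7 of 8 called higher and 1 lower. The lower one was Ccr2, which went from 92.5 to 41.1 CPM. Of all genes 21.5% were called higher and 40.7% lower. Cut into 4 bins by the neutrophil list, cells of the 48 h culture had a mean of 0.500, 1.32, 1.55 and 3.52 Ifitm6 UMIs and of 1.38, 2.10, 1.93 and 2.72 Ifitm3 UMIs. By the monocyte and macrophage list, Ifitm6 went through 1.13, 1.35, 1.64 and 2.77 and Ifitm3 through 1.23, 1.32, 1.49 and 4.10. Of these 2 lists, Ifitm6 was spread more widely along the neutrophil list and Ifitm3 along the monocyte and macrophage list. The bin highest in the eosinophil list was poorest in both, with 0.257 Ifitm6 and 0.405 Ifitm3 UMIs per cell, against at least 1.67 and 1.98 in the other bins. The bin highest in the monocyte list had the lowest depth before thinning, a median of 5612 UMIs per cell against 6562 to 8359. The part that these lineages had in the Ifitm3 and Ifitm6 levels was not tested.

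**Figure D4:**
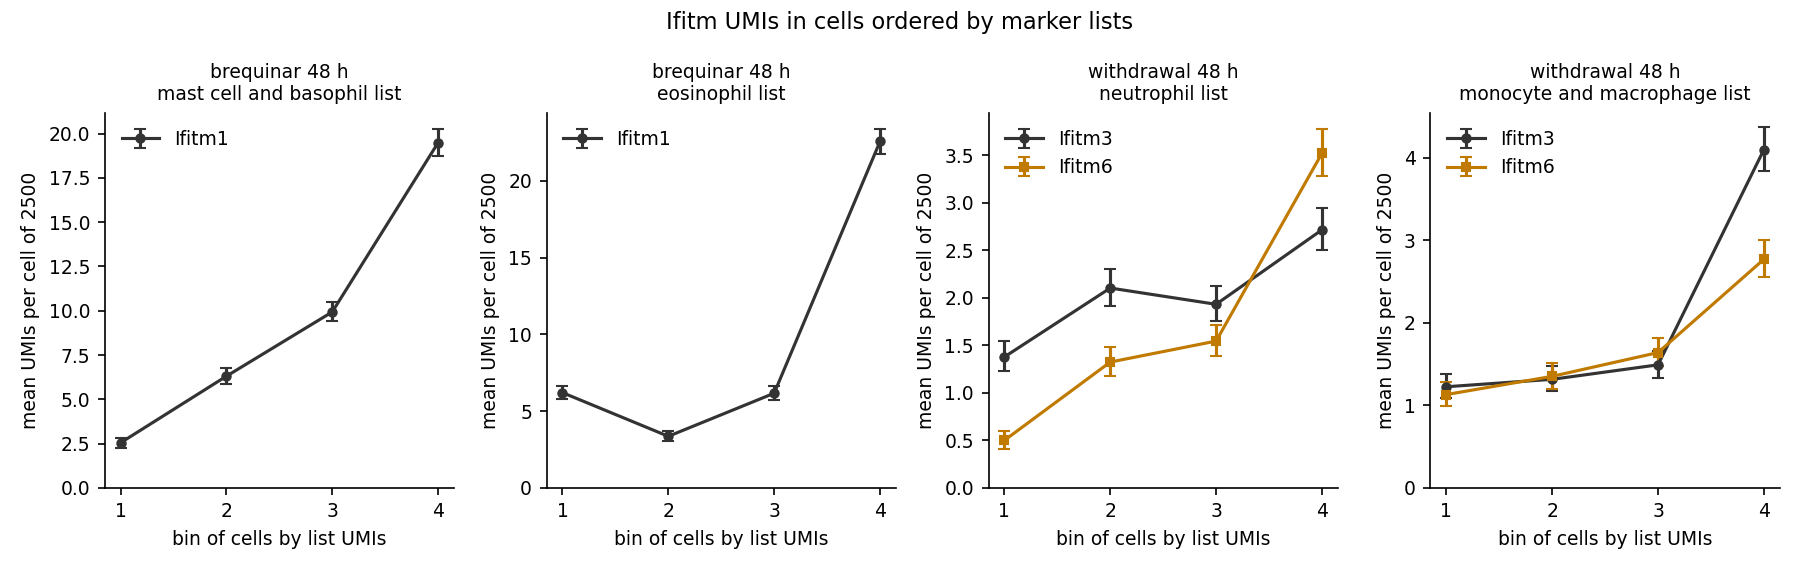
Mean UMIs per cell of Ifitm1 at 48 h of brequinar (left 2 panels) and of Ifitm3 (circles) and Ifitm6 (squares) at 48 h of withdrawal (right 2 panels), vertical axes from 0, after thinning to 2500 UMIs, in cells cut into 4 bins of equal size from the lowest (1) to the highest (4) UMIs of the marker list named above each panel; bars are exact 95% Poisson intervals of the counts. Ifitm1 goes from 2.54 to 19.5 along the mast cell and basophil list, and Ifitm6 from 0.500 to 3.52 along the neutrophil list.

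Ifitm2, the closest relative of Ifitm3 in coding sequence, kept the narrowest range, 34.2 to 62.1 CPM. Under brequinar it was at 54.6, 34.2, 43.7, 62.1 and 59.6 CPM. On withdrawal it was at 55.9, 35.2, 38.8, 42.8 and 53.6 CPM. Both 6 h cultures were low, 1.60-fold (1.43 to 1.79) and 1.59-fold (1.42 to 1.78) below 0 h, and both 48 h levels were within counting error of 0 h, with folds of 1.09 (0.958 to 1.24) under brequinar and 0.959 (0.849 to 1.08) on withdrawal; the first was 0.95 in thinned cells and the second 1.22 with median-of-ratios size factors, so neither has a settled direction. The largest gap between the arms was at 24 h, 1.45-fold (1.31 to 1.60) with brequinar higher. Between 7.94% and 14.6% of thinned cells had an Ifitm2 UMI (27.3% to 48.1% unthinned), and free RNA at 5% would give 0.439%.

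The Ifitm2 level is the least certain of the 4. Of its 31-base stretches in GENCODE M21 transcripts, 55.5% also occur in other genes, among them Ifitm1, Ifitm3, Ifitm7 and several pseudogenes, against 20.5% for Ifitm3, 11.6% for Ifitm1 and 0% for Ifitm6. How the authors' counting treated reads that fit several of these genes is not given in the sources used here. The gene model Gm45717, which shares sequence with all 3 of these members, was at 0 in every culture. Ifitm7, on chromosome 16, was at 0.803, 0.457, 1.07, 6.12 and 3.06 CPM over the brequinar times, with 103 UMIs at 24 h, and at or below 0.698 CPM on withdrawal; it shares stretches with Ifitm1, Ifitm2 and Ifitm3, so its counts cannot be told apart from theirs with certainty.

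Counting a ratio of at least 1.5-fold as called, among genes that reached 20 CPM in at least 1 of the 2 cultures compared, the members' calls read as follows beside all genes. At 6 h Ifitm2 was called lower in both arms and no member higher, of 3 measured members; of all measured genes 4.97% were called lower and 8.82% higher under brequinar, and 8.11% and 12.3% on withdrawal. At 12 h no member was called under brequinar (13.5% of genes higher and 4.67% lower), and Ifitm3 was called lower on withdrawal (11.2% of genes lower and 13.4% higher). At 24 h Ifitm1 was called higher under brequinar (29.2% of genes higher and 13.8% lower) and Ifitm3 lower on withdrawal (11.9% of genes lower and 9.46% higher). At 48 h Ifitm1 was called higher (25.7% of genes) and Ifitm3 lower (17.3% of genes) under brequinar, and Ifitm6 higher on withdrawal, 1 of 4 measured members (21.5% of genes higher and 40.7% lower). Between arms no member was called at 6 h (1.9% of genes higher in brequinar and 1.45% lower) or 12 h (13.2% and 7.33%). Ifitm1 and Ifitm3 were called higher in brequinar at 24 h (29.6% of genes higher and 8.05% lower), and at 48 h Ifitm1 was called higher (37.6% of genes) and Ifitm3 and Ifitm6 lower (8.57% of genes). Ifitm6 under brequinar missed the level limit narrowly, at 19.9 CPM.

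Steps between successive times gave a further set of calls. From 6 to 12 h no member was called under brequinar (6.8% of genes higher and 3.36% lower) or on withdrawal (3.96% and 4.31%). Ifitm1 was called higher in both late brequinar steps, from 12 to 24 h (17.2% of genes higher and 11.9% lower) and from 24 to 48 h (6.64% of genes), and Ifitm3 lower in the second of them (8.83% of genes). On withdrawal Ifitm3 was called lower from 12 to 24 h (11.7% of genes lower and 5.56% higher), and Ifitm3 and Ifitm6 higher from 24 to 48 h (16.7% of genes higher and 28.5% lower). With size factors the shares of all genes called higher and lower became 10.6% and 6.32% for 12 h of brequinar, 29.1% and 26.8% for 48 h of withdrawal, 21.5% and 13% between arms at 24 h, and 19.5% and 17.9% between arms at 48 h. For the steps they became 8.99% and 6.14% from 24 to 48 h of brequinar, 6.95% and 9.11% from 12 to 24 h of withdrawal, and 24.6% and 16.1% from 24 to 48 h of withdrawal.

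The other genes of the interferon pathway were mostly low in these cells. Of 55 interferon response genes, 13 were measured at 20 CPM or more at 48 h of brequinar: 9 were called higher and 0 lower (25.7% and 17.3% of all genes), with a median log2 ratio of 0.69 against 0.04 over all genes. Sp100, a nuclear body protein, was 4.59-fold higher (4.06 to 5.18), Samhd1, a deoxynucleotide hydrolase, 3.34-fold higher (2.85 to 3.90), and the GPI-anchored protein gene Ly6e 3.07-fold higher (2.98 to 3.16). The same list had 11 of 14 called higher at 24 h of brequinar, with a median of 0.71 against 0.16 (29.2% of all genes higher). At 6 and 12 h 1 of 10 and 1 of 11 were called higher, near the 8.82% and 13.5% of all genes. At 24 h, when most of the measured list was called higher, Ifitm3 was at 425 CPM, below its 0 h level of 574 CPM. Ifitm1 was then at 1783 CPM, above its 0 h level of 373 CPM. Ifitm2 was at 62.1 against 54.6 CPM, and Ifitm6 was under 20 CPM at both times. The part of interferon in these levels was not tested.

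On withdrawal the interferon response list was mixed at 48 h, with 5 of 13 called higher and 4 lower (21.5% and 40.7% of all genes; 2 lower with median-of-ratios size factors) and a median of -0.16 against -0.33 over all genes. Samhd1 was 7.85-fold higher (6.85 to 9.03), Sp100 5.60-fold higher (5.02 to 6.26) and Ifi27 2.98-fold higher (2.70 to 3.28). Lgals9, a galectin, was 2.63-fold lower (2.37 to 2.93), Bst2, the virus tether tetherin, 2.04-fold lower (1.85 to 2.25), and Psmb8, an immunoproteasome subunit, 1.69-fold lower (1.52 to 1.89). At 6 h of withdrawal 1 of 11 was called higher and 1 lower (12.3% and 8.11% of all genes). At 12 h 7 of 12 were called higher and 1 lower (13.4% and 11.2% of all genes). The median log2 ratio at 12 h was 0.51 against 0.01 over all genes. At 24 h of withdrawal, where Ifitm3 was lowest, 2 of 11 were called higher and 1 lower (9.46% and 11.9% of all genes). The classical interferon targets Isg15 and Ifit1 were under 15 CPM in every culture: Isg15 went from 0.602 to 8.78 CPM under brequinar and from 0.537 to 14.6 CPM on withdrawal, and Ifit1 from 0.201 to 1.72 CPM and from 0.107 to 8.31 CPM.

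Of 11 interferon ligand, receptor and kinase genes, 5 were measured at 48 h of brequinar and 5 were called higher, and 5 of 6 were called higher at 48 h of withdrawal, with 0 lower in both; of all genes 25.7% and 21.5% were called higher and 17.3% and 40.7% lower. Jak2, the kinase of the interferon gamma receptor, was 5.51-fold higher (4.63 to 6.56) under brequinar and 3.11-fold higher (2.58 to 3.74) on withdrawal. The receptor gene Ifngr1 was 1.87-fold higher (1.74 to 2.00) and 2.42-fold higher (2.28 to 2.57). Ifnar2, of the type I receptor, was 1.74-fold higher (1.39 to 2.17) under brequinar, and Ifngr2 2.49-fold higher (2.26 to 2.73) on withdrawal.

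Among 8 genes known to modify or bind IFITM proteins, 7 were measured at 48 h in each arm; 2 were called higher and 2 lower under brequinar, and 1 higher and 3 lower on withdrawal. These counts are near the shares of all genes, 25.7% higher and 17.3% lower under brequinar and 21.5% higher and 40.7% lower on withdrawal, so they are not a result about this list. Vapa, an endoplasmic reticulum tether that binds IFITM3, was 1.71-fold higher (1.67 to 1.76) under brequinar, and Setd7, a methyltransferase for IFITM3, 1.68-fold higher (1.44 to 1.96). Zmpste24, a membrane protease that acts with IFITM proteins, was 2.15-fold lower (1.84 to 2.52) under brequinar and 2.63-fold lower (2.27 to 3.06) on withdrawal. The tetraspanin gene Cd81 was 2.00-fold lower (1.88 to 2.14) and 1.68-fold lower (1.59 to 1.77). On withdrawal Nedd4, a ubiquitin ligase for IFITM3, was 3.32-fold lower (3.05 to 3.62) and the tetraspanin gene Cd9 2.05-fold higher (1.80 to 2.33). None of 8 other dispanin family genes reached 20 CPM.

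The genes beside the cluster were all under 20 CPM in every culture, and only Pgghg was high enough to follow over time. Pgghg, on the Ifitm5 side, stayed between 6.28 and 12.4 CPM. Under brequinar it was at 6.37 CPM at 0 h and at 12.4 CPM at 24 h. Nlrp6 was at 0, and B4galnt4 and Pkp3, on the Ifitm6 side, were at or below 1.75 CPM. Ifitm5, the bone-restricted member of the cluster, was at or below 1.34 CPM.

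Among 2692 genes at 50 CPM or more in some culture whose highest level was at least 2-fold the lowest, likeness was measured as the Pearson correlation of log2(CPM + 5) over the 10 cultures. Nearest to Ifitm1 were the platelet chemokine gene Pf4 (0.97; 10.9 CPM at 0 h and 53.5 CPM at 48 h of brequinar), Arhgef39 (0.97) and Cela1 (0.96). Nearest to Ifitm6 were the lectin gene Clec4n (0.98) and the neutrophil granule genes Ltf (0.98) and Lcn2 (0.98); all 3 were highest at 48 h of withdrawal, at 64.7, 493 and 6548 CPM. Ifitm3 had no gene above 0.82, the value for Sh3glb1, Nudt4 and Clec4e, each of which was lowest or near its lowest at 24 h of withdrawal, at 42.6, 41.8 and 48.7 CPM. Nearest to Ifitm2 were the calcium channel gene Orai1 (0.90), Nt5dc2 (0.85) and Tifab (0.81). The 10 cultures share 1 pool and its free RNA, and the Ifitm6 values rest on 1 culture that stands far above the rest.

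Mitochondrial UMIs and depth moved with time in both arms. Cells in which mitochondrial genes made up 10% or more of the UMIs were 18.4% of all cells at 0 h and 1.70% at 48 h of brequinar, and 16.6% and 3.12% on withdrawal. In cells under 10% the 48 h folds were 10.3 for Ifitm1 and 0.445 for Ifitm3 under brequinar, and 1.10 for Ifitm3 and 125 for Ifitm6 on withdrawal.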

How the data were processed

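Spliced UMI counts per cell barcode and gene were deposited by the authors as raw whole-number counts in 1 matrix for both runs of the pool. Per the submitters' processing notes Cell Ranger, bustools 0.39.4 and kallisto 0.46 were used, in roles that are not given; the genome build is not given in the sources used here. Of 54838 gene IDs in the matrix, 53947 are in GENCODE M21 with the same version, and this annotation and RefSeq's promoter table gave positions and sequences. The IDs were matched to gene names, and IDs of 1 name were summed.

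The deposited demultiplexing table calls 15582 barcodes, 2777 of them (17.8%) doublets; only the 12540 barcodes assigned to 1 culture and found in the matrix were used. The table carries no run mark; 26 barcodes are listed more than once, and all of those are called negative. The unspliced matrix was not used here.

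UMIs were summed per culture and divided by the culture's total (CPM). Intervals are exact at 95% (Poisson for counts, Clopper-Pearson for shares, conditional binomial for ratios) and cover counting error only. With 1 culture per condition no test was made. Calls need 20 CPM in either culture and a 1.5-fold ratio. Cells were thinned to 2500 UMIs with a fixed seed, leaving out 13 to 249 shallower cells per culture. The ratio and thinning steps were checked on simulated counts. Members, 4 pathway lists and 10 marker lists were chosen with earlier results of these data known. Of each pathway list, the 3 largest folds per direction at 48 h were named. For each member the 3 genes most alike over the cultures were named. Isg15 and Ifit1 were named as textbook interferon targets after their values were seen. Single genes of the marker lists were also named after their values were seen. Alternatives changed the cells used, their weight and depth, the scaling, a pseudocount of 5 CPM, the thresholds and free RNA. Python 3.11.15, numpy 2.4.6, scipy 1.17.1 and pandas 2.3.3 were used.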

Additional observations from a re-analysis of the deposited data

Results flagged for a closer look

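In 5 cases a member's level moved away from its own 0 h culture in opposite directions in the 2 arms, with both intervals clear of 1; with 1 culture per condition none of these differences was tested. Ifitm1 had folds of 1.06 under brequinar and 0.928 on withdrawal at 6 h, of 4.78 and 0.925 at 24 h, and of 10.4 and 0.676 at 48 h. Its 0 h cultures already differed, 373 CPM in the brequinar arm against 409 CPM, a ratio of 0.911 (0.883 to 0.941). At 6 h the arms were within counting error of each other, with a ratio of 1.04 (0.998 to 1.08). Ifitm2 had folds of 1.14 and 0.766 at 24 h. Ifitm3 had folds of 0.452 and 1.11 at 48 h.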

How the results depend on the processing

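No paired analysis was possible because each condition was 1 culture and both runs hold the same pool. None of the alternatives turned a called member's direction. Of the 48 h folds against 0 h, those with every cell weighted equally were 10.9 for Ifitm1, 1.24 for Ifitm2 and 0.524 for Ifitm3 under brequinar and 0.830, 1.17 and 1.45 on withdrawal. In thinned cells Ifitm2 had 0.95 under brequinar, which crosses 1, and on withdrawal Ifitm1 had 0.747, Ifitm3 1.40 and Ifitm6 184. Median-of-ratios size factors shifted all 48 h withdrawal ratios by 0.35 on the log2 scale, and at most 0.10 in either direction in the other cultures; they gave 0.862 for Ifitm1, 1.22 for Ifitm2, which crosses 1, 1.42 for Ifitm3 and 161 for Ifitm6. With 5% free RNA removed the values were 11.4 for Ifitm1 and 5.35 for Ifitm6 under brequinar and 208 for Ifitm6 on withdrawal. Without the 2% of cells richest in the gene they were 9.94 and 0.419 for Ifitm1 and Ifitm3 under brequinar. On withdrawal they were 0.527, 1.01 and 244 for Ifitm1, Ifitm3 and Ifitm6. For Ifitm6 this setting takes a larger part of the count at 0 h, where 63 of 1353 cells had a UMI, than at 48 h. A pseudocount of 5 CPM gave 2.46 and 59.8 for Ifitm6 in the brequinar and withdrawal arms. Of the interferon response genes, 5 were higher at 48 h of brequinar with a 2-fold threshold; on withdrawal 3 were higher and 2 lower, of 13 in each arm (14.4% of all genes higher and 5.60% lower under brequinar, 14.8% and 24.8% on withdrawal). With no filter on CPM 38 of 50 were higher and 3 lower under brequinar, and 36 of 52 higher and 7 lower on withdrawal (31.2% of all genes with a UMI higher and 31.8% lower under brequinar, 27.5% and 42.4% on withdrawal); the added genes are under 20 CPM in both cultures. With size factors 2 were lower on withdrawal. Of 360 alternatives for the other 40 folds, 69 moved the value beyond counting error and 6 by over 1.5 times, all of Ifitm6. Outside 48 h of withdrawal, Ifitm6 rests on 82 to 170 UMIs per culture.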
